A study of Mus musculus with 76 samples.

Results

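Endothelial genes in blood progenitors made from pluripotent stem cells were examined cell by cell. The rule named 10 genes, Egfl7, Eng, Pecam1, Plvap, Cdh5, Kdr, Tek, Tie1, Esam and Emcn. Of these, 9 are rows of the deposited table of 15192 genes; Cdh5 was not analysed here. The table holds 76 single mouse cells called iHPCs, which per the labels' protocols came from pluripotent stem cells with inducible Runx1, Hoxa9 and Hoxa10 and were sorted one by one, so that every cell carries the 3 factors' inducible design and there is no control group. All titles share the prefix R9A10, and the deposited values are labelled D21 for every cell. No culture, animal, line or sort is named that tells 1 cell from another. The 76 cells are therefore treated as 1 sample, and nothing below is tested across them. Each cell is called below by the letter and number of its title.

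In the embryo, blood progenitors arise from endothelial cells in the endothelial-to-haematopoietic transition, in which Runx1 acts while the endothelial programme is shut down. The endothelial programme includes receptors for vascular growth factors, junction proteins that join cells of the vessel wall and secreted proteins of the vessel. Several of its genes are also used outside the vessel wall, and Pecam1, Eng, Esam, Emcn and Tek are known from blood stem and progenitor cells. A transcript of these or the other genes examined, Egfl7 included, cannot be assigned to a remnant or to the progenitor itself from its level alone.

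Values are TPM, the share of a cell's transcripts after scaling for gene length. Levels of different genes are set side by side on this scale, which does not remove differences between genes in how reads were captured or assigned. Among genes that every cell uses and that were found in all 76 cells, medians ran from 133 TPM (Gapdh) to 6183 TPM (Actb). A gene counts as found in a cell where it reaches 1 TPM. Beside a share of cells stands its 95% interval by the exact Clopper-Pearson method, which covers the counting of cells only. The depth of the libraries is unknown. Cells had 2465 to 5992 genes at 1 TPM or more (median 4182.5), and 66.3% of all values in the table were 0. Of 10 genes that every cell uses, 8 were found in at least 74 cells, but Tbp, a general transcription factor, was found in 36 and Polr2a, a subunit of RNA polymerase II, in 22, so a 0 in this table is a listed value and not evidence that a cell lacks the transcript.

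The 9 genes differed widely in how often they were found. Egfl7 was found in 73 cells, Eng in 37, Pecam1 in 24, Plvap in 18, Emcn in 7, Esam in 4 and Tie1 in 1. The receptor genes Kdr and Tek were listed at 0 in all 76 cells. A member was found in a median of 7 cells, where the median over all genes of the table was 11 cells. Of the 9, 1 was in at least 50% of cells, against 3511 of all 15192 genes.

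Promoter sequences of the gene found nearly throughout, of Eng, the next most frequent, and of genes listed at 0 are shown. Each window runs from 250 bases before to 50 after an annotated start, is written 5′ to 3′ along the gene's strand and comes from RefSeq's annotation of GRCm38.p6. Capitals mark matches, on either strand, to TGTGGT (a RUNX core), to AGATAA (core of GATA factors), to CGGAAG (a core of ETS factors) and to a further such core, AGGAAG. Egfl7 has 3 windows in the table, and gene-level TPM does not tell its starts apart. The one shown is at chr2:26583615-26583914 (plus strand), the Eng window at chr2:32646345-32646644 (plus), the Tek window at chr4:94739039-94739338 (plus) and the Kdr window at chr5:75978406-75978705 (minus).
Egfl7: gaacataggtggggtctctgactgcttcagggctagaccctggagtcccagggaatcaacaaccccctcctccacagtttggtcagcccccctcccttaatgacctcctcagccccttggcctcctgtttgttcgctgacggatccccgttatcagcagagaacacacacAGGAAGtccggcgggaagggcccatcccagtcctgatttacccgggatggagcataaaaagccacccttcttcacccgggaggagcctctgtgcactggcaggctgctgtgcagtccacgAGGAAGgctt
Eng: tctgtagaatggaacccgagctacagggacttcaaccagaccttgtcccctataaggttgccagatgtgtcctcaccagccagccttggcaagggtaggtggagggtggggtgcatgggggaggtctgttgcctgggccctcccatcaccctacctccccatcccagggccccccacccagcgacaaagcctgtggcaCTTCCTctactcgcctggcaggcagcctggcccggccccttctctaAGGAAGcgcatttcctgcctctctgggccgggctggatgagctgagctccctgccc
Tek: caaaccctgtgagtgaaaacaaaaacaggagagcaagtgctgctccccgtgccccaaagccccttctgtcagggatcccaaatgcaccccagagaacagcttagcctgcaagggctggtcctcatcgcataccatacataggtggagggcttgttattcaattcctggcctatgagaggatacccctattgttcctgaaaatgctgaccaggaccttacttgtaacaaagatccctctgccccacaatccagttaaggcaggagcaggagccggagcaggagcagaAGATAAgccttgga
Kdr: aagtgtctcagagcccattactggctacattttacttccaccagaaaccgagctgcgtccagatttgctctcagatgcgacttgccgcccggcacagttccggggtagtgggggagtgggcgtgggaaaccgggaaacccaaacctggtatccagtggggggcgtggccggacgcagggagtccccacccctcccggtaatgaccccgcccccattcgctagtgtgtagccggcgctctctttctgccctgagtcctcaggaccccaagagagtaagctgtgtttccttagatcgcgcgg
AGGAAG occurred 2 times in this Egfl7 window, 2 times in that of Eng and 0 times in those of Tek and Kdr. Among the windows given, which include none of Pecam1, Plvap or Esam, AGGAAG did not follow how often a gene was found. The other Egfl7 windows hold it 3 and 0 times, and those of Emcn and Tie1 hold it 2 times each. Among all 32851 windows of the table, 35.4% hold it. AGATAA was present in the Tek window and in 11.2% of all windows. TGTGGT was in none of the 8 windows that the table gives for Egfl7, Eng, Emcn, Tek, Tie1 and Kdr, and in 16.8% of all windows. CGGAAG was found in the Tie1 window only among these 8, and in 16.9% of all. A match describes the letters of the window and is neither a binding site nor a cause of a level.

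**Figure D1:**
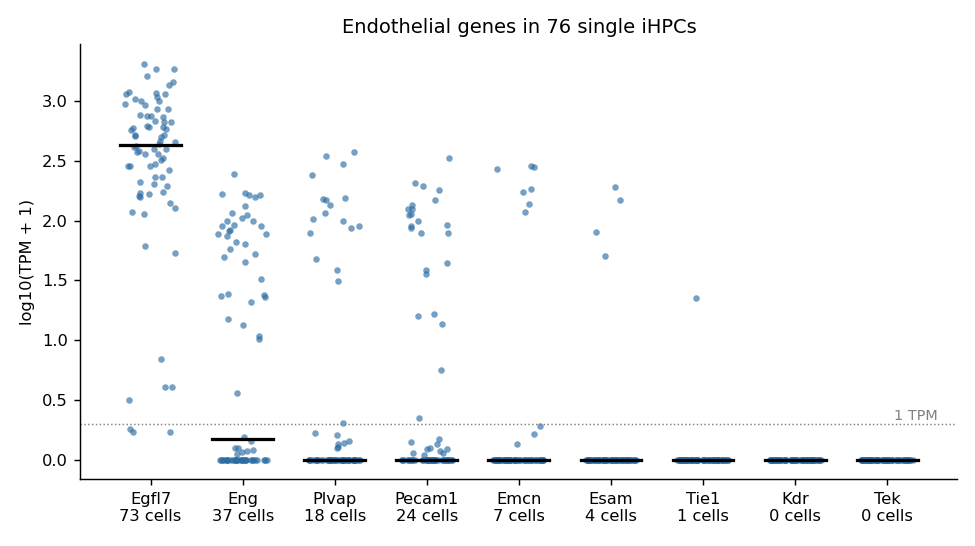
Level of each of the 9 endothelial genes, as log10(TPM + 1), in each of 76 iHPCs (points); the bar is the median over all cells and the dotted line is 1 TPM. Egfl7 had a median of 430 TPM, the other genes had medians under 1 TPM, and their cells with the gene reached 21.7 TPM (Tie1) to 372 TPM (Plvap).

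Egfl7 encodes a secreted protein with EGF-like domains, made by endothelial cells and bound to the vessel's matrix (chromosome 2, 26580014 to 26593120, plus strand, GENCODE annotation of GRCm38). It was found in 73 of 76 cells (96.1%, interval 88.9 to 99.2%). The lowest value was 0.704 TPM, the median 430 TPM and the highest 2060 TPM, with an interquartile range of 200 to 760 TPM. Its mean level of 557 TPM placed it at rank 343 of the 15192 genes. It reached 1000 TPM in 13 cells, lay from 100 to 1000 TPM in 54 and from 10 to 100 TPM in 2, and was under 10 TPM in the remaining 7. Egfl7 was thus an abundant transcript in most of these cells, and few cells filled the range between 10 and 100 TPM. It was the highest of the 9 genes in 65 cells and made up a median of 85.8% of a cell's summed TPM of the 9. It was higher than Runx1, an inducible factor of the protocol whose median was 100.4 TPM, in 66 cells. It was also higher than the surface gene Cd34, whose median was 666 TPM, in 26.

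The 7 cells under 10 TPM of Egfl7 were E9 (0.704 TPM), H11 (0.714), A5 (0.817), A10 (2.18), G8 (3.03), H6 (3.07) and D2 (5.98). Of these 7 cells, 5 held another of the endothelial genes at 1 TPM or more. Cell H6 held the highest Eng level of all cells, 245 TPM, and A5, D2 and H11 held Pecam1 at 124, 110 and 34.9 TPM. Cell E9 held Emcn at 282 TPM, and it also had the fewest genes of all cells, 2465. Cells A10 and G8 had no other member at 1 TPM. Genes found in the 7 cells ran from 2465 to 4022, below the overall median of 4182.5. The blood gene Coro1a, an actin regulator of leukocytes, was at 747 to 1482 TPM in all 7. The rho of Egfl7 with the number of genes found per cell was -0.05 over the 76 cells.

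The Egfl7 gene span also holds the microRNA genes Mir126a and Mir126b and shares 6482 bases with the protein-coding gene Gm20532 on the same strand; none of these has a row in the table. How reads of the part shared with Gm20532 were assigned is not given in the sources used here, and their part in the Egfl7 level was not tested. At its end, 64 bases overlap the opposite-strand gene Agpat2, which was found in 46 cells. Whether the libraries kept strand is not given in the sources used here, so reads of this overlap could go to either gene. Agpat2 was found in 45 of the 73 cells with Egfl7, and its median of 84.8 TPM was lower than that of Egfl7.

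Eng encodes endoglin, a co-receptor for ligands of the TGF-beta family, and is the second most frequent member (chromosome 2, 32646595 to 32682669, plus strand). It was found in 37 cells (48.7%, interval 37.04 to 60.4%). Over all cells the lowest value was 0, the median 0.489 TPM and the highest 245 TPM. In the 37 cells with the gene the median was 75.7 TPM, with an interquartile range of 23.5 to 104 TPM. Values were split between these cells and the 39 others, of which 31 were at 0 and 8 between 0 and 1 TPM; 34 cells reached 10 TPM. Egfl7 was above Eng in 75 of 76 cells, and in 36 of the 37 cells that had both. Eng shares 61 bases with the opposite-strand gene Fpgs, and 27 of the 37 cells with Eng had no Fpgs.

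The genes that endoglin works with were found unevenly. Of 20 ligand, receptor, SMAD and target genes fixed for it, 18 were listed, with a median of 8.5 cells per gene against 11 over all genes. The target gene Id2 was found in 73 cells, Id1, a target of BMP signalling, in 55, the signal transducer Smad2 in 40 and the type I receptor Tgfbr1 in 26. At 10 TPM these were 45, 50, 35 and 9 cells. The endothelial type I receptor Acvrl1, with which endoglin acts in vessels, was found in 4 cells, and the type II receptor Bmpr2 in 2. Tgfb2 and Tgfb3 were listed at 0 in all cells.

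Pecam1, an adhesion molecule at endothelial junctions that platelets and leukocytes also carry (chromosome 11, 106654217 to 106750628, minus strand), was found in 24 cells (31.6%, interval 21.4 to 43.3%). Its lowest value and its median over all cells were 0, and its highest was 333 TPM in cell D10. In the 24 cells with the gene the median was 90.0 TPM, with an interquartile range of 37.1 to 127 TPM. A further 10 cells had values above 0 and below 1 TPM. No annotated gene overlaps it.

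Plvap, which forms the diaphragms of endothelial fenestrae and caveolae (chromosome 8, 71497765 to 71511752, minus strand), was found in 18 cells (23.7%, interval 14.7 to 34.8%). Its lowest value and its median over all cells were 0, and its highest was 372 TPM in cell D4. In its 18 cells the median was 108 TPM, and the middle 50% lay between 79.9 and 153 TPM. Plvap shares 1819 bases with the opposite-strand gene Gtpbp3, and 15 of the 18 cells with Plvap had no Gtpbp3.

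Eng, Pecam1 and Plvap differed in how often they were found, and had means over all cells, which mix level and frequency, of 38.2, 30.9 and 33.2 TPM. Their medians among cells with the gene were 75.7, 90.0 and 108 TPM, and the interquartile ranges of these cells overlapped. Plvap was higher than Pecam1 in 23 cells and lower in 26, and Eng was higher than Plvap in 34 and lower in 23. In the 9 cells with both Eng and Plvap, Eng was the higher in 1. The order of the 3 genes thus depends on whether cells without the gene are counted, whereas the median of Egfl7 stood above all of them.

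Emcn encodes endomucin, a sialomucin of venous and capillary endothelium that is also carried by blood stem cells (chromosome 3, 137341067 to 137432185, plus strand). It was found in 7 cells (9.21%, interval 3.78 to 18.1%), at 118 TPM in C11, 137 in A11, 173 in G5, 184 in D7, 268 in F8, 282 in E9 and 287 in E6. All of these lay above 100 TPM, and no cell lay between 1 and 10 TPM, so the gene was either well above the detection limit or near 0. Its median in these cells, 184 TPM, was the second highest after that of Egfl7. The mean over all cells was 19.1 TPM.

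Esam, an adhesion molecule of endothelial tight junctions, platelets and blood stem cells (chromosome 9, 37528078 to 37538319, plus strand), was found in 4 cells (5.26%, interval 1.45 to 12.9%). It stood at 50.1 TPM in H2, 79.7 in F3, 149 in E11 and 192 in G6. The 4 Esam cells and the 7 Emcn cells did not overlap, nor did the 4 Esam cells overlap the 24 with Pecam1. With so few cells, this lack of overlap does not show that the genes exclude each other.

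The receptor tyrosine kinase genes were the least frequent members. Tie1, an orphan receptor that modulates Tek (chromosome 4, 118471191 to 118490061, minus strand), was found in cell D7 alone, at 21.7 TPM (1.32%, interval 0.0333 to 7.11%). Tek, the receptor for angiopoietins (chromosome 4, 94739289 to 94874976, plus strand), and Kdr, the main receptor for VEGF-A on endothelial cells (chromosome 5, 75932827 to 75978458, minus strand), were listed at 0 in 76 of 76 cells. With 0 of 76 cells, 3 counts would allow up to 3.95% of cells to have the gene at 1 TPM, and the exact interval ends at 4.74%. Given that Polr2a reached 1 TPM in only 22 cells, these limits apply to cells with a captured transcript and not to cells that use the gene.

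Partner genes of these receptors ranged from 0 to 47 cells. Of 14 genes fixed for Tek and Kdr, 13 were listed, Tie1 among them. The adaptor gene Grb2 was found in 47 cells, the kinase subunit gene Pik3r1 in 37 and the adaptor gene Shc1 in 24, all of which serve many receptors. Angpt1, a ligand of Tek, was found in 20 cells, with a highest value of 534 TPM, and Vegfa, a ligand of Kdr, in 14. The other VEGF receptor genes, Flt1 and Flt4, were each found in 1 cell and at under 10 TPM, and the co-receptor genes Nrp1 and Nrp2 in 0. Over the 13 genes the median was 12 cells, against 11 over all genes.

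**Figure D2:**
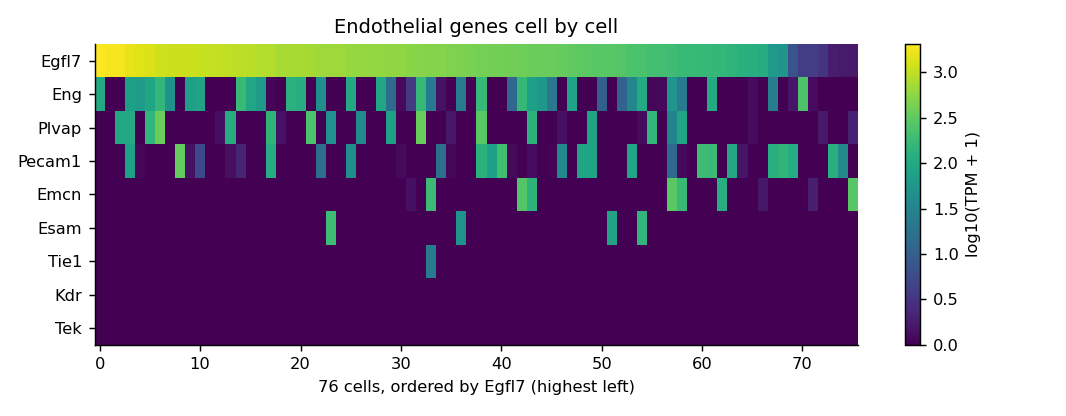
The 9 endothelial genes (rows) in 76 iHPCs (columns, ordered by Egfl7, highest left), coloured by log10(TPM + 1). Eng was found in 37 cells, Plvap in 18 and Pecam1 in 24 in a scattered pattern, and only 3 cells held all 3 of these genes.

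Within single cells the members were found in many combinations. Every cell had at least 1 member, 58 had at least 2 (76.3%, interval 65.2 to 85.3%), 23 had at least 3 and 6 had at least 4. The median was 2 members per cell and the highest 5. At 10 TPM, 52 cells had at least 2 members and 2 cells had none. Counted without Egfl7, 31.6% of cells had at least 2 members. There were 18 combinations, of which Egfl7 with Eng (17 cells), Egfl7 alone (16), Egfl7 with Pecam1 (10) and Egfl7 with Eng and Pecam1 (7) were the most frequent.

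Eng, Pecam1 and Plvap were scattered over the cells with little relation to each other. All 3 were found in 3 cells, exactly 2 in 15, exactly 1 in 40 and none in 18. Eng was found in 10 of 24 cells with Pecam1 (41.7%) and 27 of 52 without it (51.9%). Eng was found in 9 of 18 cells with Plvap (50%) and 28 of 58 without it (48.3%). Pecam1 was found in 5 of 18 cells with Plvap (27.8%) and 19 of 58 without it (32.8%). The Spearman rho of log2(TPM + 1) over the 76 cells, given as a description, was -0.08, -0.02 and -0.08 for these pairs. The cells are 1 sample with no source named per cell, and such small values in sparse data are no finding.

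The level of Egfl7 was set beside the less frequent members. Its median was 517 TPM in the 37 cells with Eng and 333 TPM in the 39 without (rho 0.23, Pearson r 0.26). It was 594 TPM in the 18 cells with Plvap and 398 TPM in the 58 without (rho 0.16, r 0.22). For Pecam1 the order was the opposite, with 316 TPM in the 24 cells with Pecam1 and 512 TPM in the 52 without (rho -0.19, r -0.19). In the 7 cells with Emcn the median of Egfl7 was 194 TPM, against 467 TPM in the 69 without (rho -0.29, r -0.18), and 1 of the 7 was above the overall median of 430 TPM. The count above the overall median was chosen after the values were seen, and no test over cells was made.

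The 6 cells with at least 4 members were A11, D7, E2, E6, E7 and G5. Cell E6 held 5, namely Egfl7 at 194 TPM, Eng at 51.99, Pecam1 at 12.6, Plvap at 30.1 and Emcn at 287. Cell D7 held the only Tie1 value together with Egfl7 at 507 TPM, Eng at 23.02 and Emcn at 184. Blood genes were present in all 6, with Ptprc (CD45, the common leukocyte antigen) at 23.6 to 125 TPM, Coro1a at 547 to 1551 TPM and Cd34 at 742 to 1636 TPM. Over the 23 cells with at least 3 members, a median of 15 of 18 listed blood identity genes was found (range 10 to 16), against 14 (11 to 17) in the other 53. Genes found per cell had medians of 4246 and 4145 in the same order. None of the cells richest in endothelial genes thus lacked blood identity genes.

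Most endothelial genes beyond the 9 were found in few cells or in none. Of 44 further endothelial genes fixed as a list, 31 were listed in the table. Of these 31, 15 reached 1 TPM in no cell (2850 of all 15192 genes did so), among them Cldn5, the claudin of endothelial tight junctions, Vwf, which encodes von Willebrand factor, Efnb2, an arterial marker, and Etv2, the ETS factor that starts the endothelial programme. The median was 1 cell per gene, against 11 over all genes. The 4 in most cells were Cd93, a lectin-like receptor of endothelial and myeloid cells (47 cells), Icam2, an adhesion molecule of endothelium and leukocytes (32), the tetraspanin gene Cd151 (18) and Procr, the endothelial protein C receptor that also marks blood stem cells (13). A cell held 0 to 5 of the 31, with a median of 2 both in cells with at least 3 members and in the others. Of the names in the list, Sox17, Sox18, Sox7, Robo4 and 9 more were not analysed here.

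The lists of blood identity genes and of shared regulators had higher medians. These and the other gene lists were chosen with earlier results of these data known. The blood list includes Runx1, an inducible factor of the protocol, and Cd34, which endothelium also carries. Of 18 listed blood identity genes, 14 reached 50% of the cells, and the median gene was in 73.5 cells. Arhgdib, Cd34, Cd48, Cd53, Coro1a, Gmfg, Laptm5 and Lsp1 were found in all 76. Gfi1 and Gfi1b, which repress the endothelial programme during blood emergence, were found in 21 and 19 cells. Of 16 regulators that blood and endothelium share, all were listed and the median was 41 cells. Lyl1 was found in 67 cells, Hhex in 63, Lmo2 in 58 and Fli1 in 53, whereas Erg was found in 9 and Tal1 in 4.

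**Figure D3:**
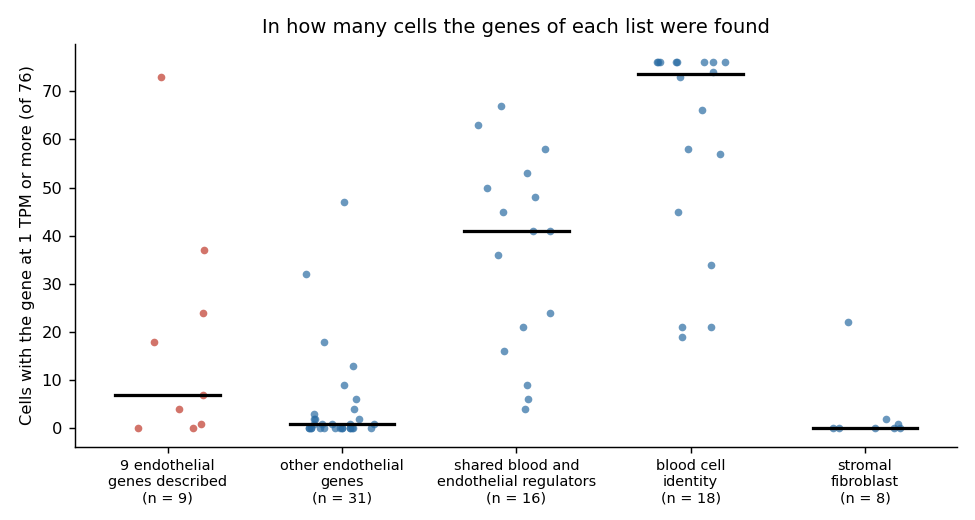
Number of the 76 cells in which each gene (point) was found at 1 TPM or more, for the 9 endothelial genes described and for 4 other lists; the bar is the median of the list. The medians were 7 cells for the 9 genes, 1 for other endothelial genes, 41 for shared regulators, 73.5 for blood identity and 0 for stromal fibroblast genes.

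Of 23 genes fixed as partners of the junction proteins, Egfl7 and Plvap, 19 were listed, with a median of 10 cells against 11 over all genes. Ptpn6 (SHP-1), a phosphatase of blood cells that binds Pecam1, was found in 73 cells, Notch2 in 57, Ctnnb1 (beta-catenin) in 56 and Ctnna1 (alpha-catenin) in 38. The junction molecule genes F11r, Jam3 and Jam2 were found in 10, 6 and 0 cells. Egfl7 acts on the Notch pathway, of which the other receptor genes Notch1, Notch3 and Notch4 were found in 15, 6 and 3 cells.

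Other cell types that carry these genes were looked for by their markers. Of 15 megakaryocyte and platelet genes, 13 were listed. Nfe2, also a gene of blood progenitors, was found in 75 cells, while Itgb3 was in 16 and Itga2b in 10. Pf4 was in 2 cells, and Ppbp, Gp1bb, Treml1 and Vwf were in 0. A cell held 1 to 4 of the 13, both in cells with at least 3 members and in the others, with a median of 2 in each. Of 8 listed stromal fibroblast genes, 5 were in 0 cells, and the most frequent was Pdgfrb (22). Of 6 listed pluripotency genes, 5 were in 0 cells.

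The endothelial genes were set against the 3 factors of the protocol, Runx1, Hoxa9 and Hoxa10. Whether reads of these 3 genes came from the inducible copies, the cells' own genes or both is not given in the sources used here. Runx1 was found in 73 cells, which leaves 3 for comparison. Plvap was found in 13 of 28 cells with Hoxa10 (46.4%) and 5 of 48 without it (10.4%), with a rho of 0.35. At 10 TPM for both genes, it was in 8 of 18 cells with Hoxa10 (44.4%) and 9 of 58 without (15.5%). With Hoxa9 the counts were 6 of 18 (33.3%) and 12 of 58 (20.7%). Eng and Pecam1 differed less by Hoxa10: Eng was in 13 of 28 cells with it (46.4%) and 24 of 48 without (50%), and Pecam1 in 8 of 28 (28.6%) and 16 of 48 (33.3%).

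Lmo2, an adaptor of the blood and endothelial transcription complex, was a further gene by which the shares differed. Plvap was found in 17 of 58 cells with Lmo2 (29.3%) and 1 of 18 without it (5.56%). Eng was found in 32 of 58 cells with Lmo2 (55.2%) and 5 of 18 without it (27.8%). At 10 TPM, Eng was in 25 of 46 cells with Lmo2 (54.3%) and 9 of 30 without it (30%), and Plvap in 15 of 46 (32.6%) and 2 of 30 (6.67%). For the ETS factor gene Fli1 the order was the opposite: Plvap was in 9 of 53 cells with Fli1 (16.98%) and 9 of 23 without it (39.1%). Pecam1 was in 23 of 67 cells with Lyl1 (34.3%) and 1 of 9 without it (11.1%). Egfl7 and Fli1 had a rho of -0.29 and a Pearson r of -0.38. These gaps and that of Plvap by Hoxa10 were picked out of 40 combinations, and none was tested. The combinations were those of Egfl7, Eng, Pecam1 and Plvap with 10 regulators and surface genes. The same counts were computed for Emcn, Esam and Tie1, so more combinations were looked at than these 40. The counts at 10 TPM were chosen after the values were seen.

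**Figure D4:**
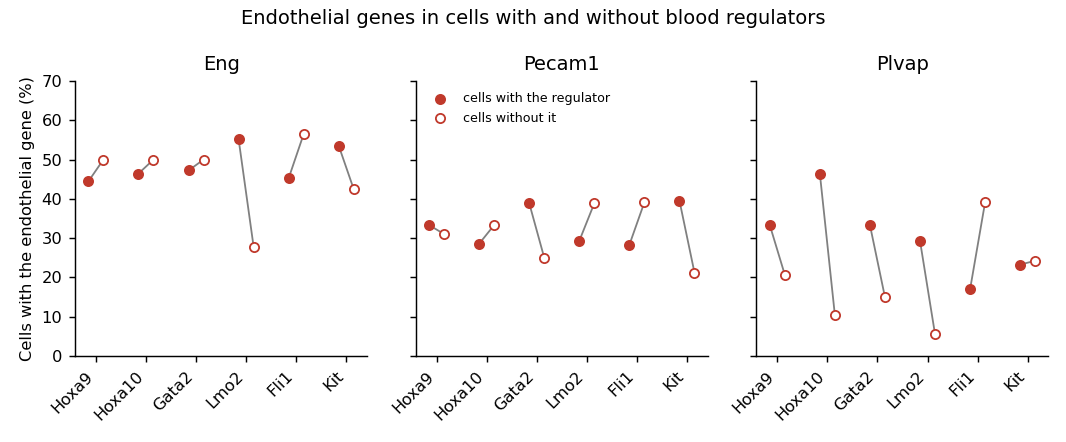
Percentage of cells with Eng, Pecam1 or Plvap at 1 TPM or more among cells with (filled) and without (open) each of 6 genes. Plvap was in 46.4% of cells with Hoxa10 and 10.4% of cells without, and Eng in 55.2% of cells with Lmo2 and 27.8% without; no test was made over cells of 1 sample.

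Cd34, the sialomucin of blood progenitors and of endothelium, was higher in cells with Plvap or Emcn. Its median was 1289 TPM in the 18 cells with Plvap and 567 TPM in the 58 without (rho 0.37, r 0.34). In 16 of the 18 cells with Plvap it was above the overall median of 666 TPM. In the 7 cells with Emcn it ran from 742 to 1684 TPM, all above the overall median, with a median of 1156 TPM, against 640 TPM in the 69 without. Procr was found in 4 of the 7 cells with Emcn (57.1%) and 9 of the 69 without (13.04%), and cell E9 held its highest value, 645 TPM. The splits of Cd34 by Plvap and by Emcn and of Procr by Emcn were chosen after the values were seen. The rho of Cd34 with Egfl7 was 0.33 (r 0.40), with Eng 0.20, with Emcn 0.19, with Pecam1 -0.01 and with Esam -0.20. With Ly6a (Sca-1), Egfl7 had a rho of 0.25, Plvap 0.23, Eng 0.16 and Pecam1 -0.19.

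The genes most alike in pattern to the 4 frequent members were taken by Spearman rho over the 76 cells among 6779 other genes found in at least 15 cells. For Egfl7 these were Zfp945 (rho 0.44), Alkbh4 (0.42), Itga6 (0.40), Ptpmt1 (0.39) and Tbc1d14 (0.38). For Eng they were Gna15 (0.40), Tnrc6b (0.38), Zfp945 (0.37), Itga5 (0.37) and Abtb1 (0.37). For Pecam1 they were Setd5 (0.42), Gimap9 (0.41), Rab8b (0.39), Zfp692 (0.38) and Stt3a (0.38). For Plvap they were Dus3l (0.43), Dusp2 (0.41), Tmem59 (0.37), Cd34 (0.37) and Ubr1 (0.36). No endothelial member was among the 5 nearest of another, and Eng stood at rank 230 for Egfl7. The most negative values, -0.48 for Egfl7 with Rab3gap1, -0.42 for Eng with Ccdc28a, -0.41 for Pecam1 with Scoc and -0.47 for Plvap with Med8, were of similar size to the most positive ones. With Pearson's r in place of rho, 0 of the 5 genes named for Egfl7 and for Pecam1 stayed among the nearest 5, 3 did for Eng and 1 for Plvap. Within title numbers 2 to 6, 1 stayed for Egfl7 and 0 for the other 3 genes; within 7 to 11, 1 stayed for Plvap and 0 for the other 3. The genes named are therefore a description of these 76 cells under 1 measure.

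The titles' letters run from A to H and their numbers go from 2 up to 11. Egfl7 was found in 8 of 9 to 10 of 10 cells of each letter. Eng was found in 2 of 9 cells (letter C) to 6 of 10 (letters E and H), and Pecam1 in 1 of 10 (letter F) to 5 of 9 (letter C). Plvap was found in 0 of 9 cells of letter B, 0 of 10 of letter F and 5 of 10 of letter E. By number, Eng ran from 1 of 8 cells (number 9) to 5 of 7 (number 11) and Plvap from 0 of 8 (number 3) to 3 of 8 (numbers 7 and 8). No test was made, and each letter or number holds few cells. Values above 0 and under 10 TPM were also set beside the title of each gene's highest cell, and whether reads passed between libraries was not tested. Of the cells that share the letter or number of the highest Eng cell, 0 of 15 had such an Eng value, against 11 of 60 others. For Pecam1 the counts were 3 of 16 against 9 of 59, and for Plvap 3 of 16 against 5 of 59.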

How the data were processed

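Single-cell RNA was measured in 76 iHPCs. The authors deposited 1 table of TPM, a column per cell, each summing to 1000000. The submitters' processing notes name the build mm10 and the tools StringTie 1.3.4, HISAT2 2.1.0, bcl2fastq and SAMtools 0.1.19. The order of steps, the annotation used and whether genes were filtered: not given in the sources used here. TPM keeps no library depth.

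From these deposited values, cells with a gene at 1 TPM or more were counted, with exact Clopper-Pearson intervals (SciPy 1.17.1), and Spearman rho was computed on log2(TPM + 1). The ranking by rho was also run on shuffled values with tied genes planted among them. That run checks the computation only and does not bear on how stable the ranking is in these cells. All cells form 1 group with no control, so no comparison between groups and no test was made. The members, the gene lists and the alternatives were chosen with earlier results of these data known. Named were the members, the 5 genes most alike to each member found in at least 15 cells and 10 regulators and surface genes. The 4 most frequent genes of each list were also to be named, or all of those tied for the blood list. The list part of this rule was not kept for stromal fibroblast genes, pluripotency genes and genes that every cell uses. A gene taken by this rule is not reported here. Others were chosen after their values were seen: Acvrl1, Bmpr2, Tgfb2, Tgfb3, Angpt1, Vegfa, Flt1, Flt4, Cldn5, Vwf, Efnb2, Etv2, Gfi1 and Gfi1b. So were Erg, Tal1, Notch1, Notch3, Notch4, F11r, Jam2, Jam3, Pf4, Ppbp, Gp1bb, Treml1, Coro1a, Ptprc, Polr2a, Tbp, Nrp1, Nrp2, Gapdh and Actb. No doublet caller was run, since each library came from 1 sorted cell per the labels. Gene positions come from the GENCODE annotation of GRCm38. Alternatives were other detection limits (above 0, 5 and 10 TPM), cells with at least 3500 genes, title numbers 2 to 6 or 7 to 11, rescaling without ribosomal-protein genes, Pearson's r, a pseudocount of 0.1 and genes found regressed out.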

Additional observations from a re-analysis of the deposited data

How the results depend on the processing

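A share or a median outside its 95% interval, a list's count changed by over 1.5 times and a rho changed by over 0.1 count as moved here. With any value above 0 counted as found, the share of cells was 100% for Egfl7, 44.7% for Pecam1 and 92.1% for at least 2 members, against 96.1%, 31.6% and 76.3% at 1 TPM. Without Egfl7, 31.6% of cells had at least 2 members. Among title numbers 2 to 6 (37 cells) Tie1 was in 0% of cells, since its 1 cell has another number, and the rho of Plvap with Cd34 was 0.26. Rescaled without 82 ribosomal-protein genes, the 1 Tie1 value was 23.05 TPM. The median number of cells for the further endothelial genes was 0 at 5 TPM and 0 at 10 TPM, against 1 at 1 TPM. The other 106 recomputed values of the main results did not move, including every share of Eng, Plvap, Esam and Emcn under the settings run. Part of the 106 could not move. Kdr and Tek were at 0 in every cell, and the medians of Pecam1, Plvap, Tie1, Esam and Emcn over all cells were 0. Of 54 recomputed correlations of single gene pairs, 14 moved: that of Pecam1 with Setd5 was 0.06 with values under 10 TPM set to 0, and that of Egfl7 with Pecam1 was -0.34 in title numbers 2 to 6 and -0.05 in 7 to 11 (39 cells). With all 76 cells in 1 sample, neither variation between cultures nor the share of transcripts missed in capture could be estimated. No paired analysis was possible because there is 1 group.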
